A study of Mus musculus with 8 samples.

Results

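The macrophages described here are 74 cells of the tumor library, out of 462 tumor cells and 20012 cells of the whole series. They were chosen on their RNA: at least 3 UMIs (unique molecular identifiers, each standing for 1 captured RNA molecule) of C1qa, C1qb and C1qc together, S100a8 and S100a9 under 1% of the cell's UMIs, and at least 1000 UMIs in all. C1qa, C1qb and C1qc encode the chains of complement component C1q, which macrophages make, and S100a8 and S100a9 are the most abundant cytosolic proteins of neutrophils. Of 143 tumor cells with 3 or more C1q UMIs, 53 were left out by the S100 limit and 16 by the depth limit. Differences in RNA between these cells and the other 388 tumor cells were therefore shaped by the choice itself and are given as a description, with no test.

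Macrophages of tumors derive largely from blood monocytes that enter the tissue, and they clear dead cells, present antigen on MHC class II and release chemokines and matrix enzymes. Arg1 (arginase 1) breaks down arginine, which T cells need. Spp1 (osteopontin) is a secreted matrix protein, Ccl8 is a chemokine that attracts monocytes and T cells, and Mrc1 (CD206) is a mannose receptor for uptake of glycoproteins. H2-Aa, H2-Ab1 and H2-Eb1 encode the chains of the MHC class II molecules that show peptides to CD4+ T cells.

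The mice were female C57BL/6J animals with a subcutaneous tumor of MOPC cells, a mouse oropharyngeal carcinoma line. Wild-type mice and a knockout model named only Genotype_02 were pooled in each tissue, so every group below mixes genotypes and no comparison of genotypes was possible. Each of 4 tissues (blood, marrow, spleen and the tumor) was 1 capture of about 16000 loaded cells, read out once for RNA and once for antibody tags. The sort took living cells that were Gr1+ and negative for NK, mast cell, red cell, B and T cell markers, or Gr1- and cKit+, so the macrophages seen are those that passed this gate. Tumors alone were digested with enzymes, for 45 min at 37 °C.

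The 74 macrophages held 2342168 UMIs, with a lowest, median and highest cell of 1185, 25874.5 and 127594. The median of the other tumor cells was 6549.5. Their C1q counts ran from 3 to 568 UMIs with a median of 72, and 52 cells had 15 or more. The 6 cells just inside the gate, with 3 to 5 C1q UMIs, had a median of 7416 UMIs, and 3 of them held a Csf1r UMI. The 27 cells of sufficient depth and low S100 just outside, with 1 or 2 C1q UMIs, had a median of 10443 UMIs, and 15 held Csf1r. The highest S100 share inside was 0.997% and the lowest one excluded by that limit was 1.02%. No cell barcode of the 74 recurred in another library.

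**Figure D1:**
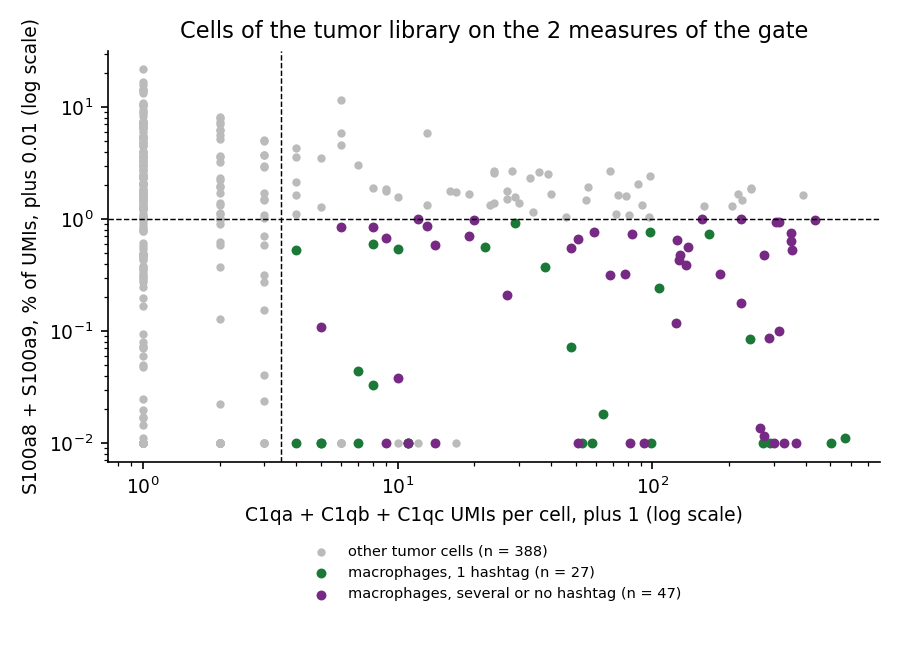
All 462 tumor cells by C1q UMIs (horizontal, log scale, 1 added) and by the share of S100a8 and S100a9 (vertical, percent, log scale, 0.01 added), with dashed lines at the limits of 3 UMIs and 1%. Green points are macrophages with 1 hashtag, purple ones those with several or none, and 16 cells under 1000 UMIs stay grey inside the lower right field.

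Hashtag antibodies, which by the labels differed between mice though no label says which mouse each stands for, gave an uneven picture in these cells. A single hashtag (at least 20 UMIs and 3 times the next) was found on 27 of 74 macrophages, or 36.5% (exact binomial 95% interval 25.6 to 48.5, counting error only). Among other tumor cells 49.0% had a single hashtag, and among blood monocytes 84.1%. Several hashtags were on 46 macrophages and no clear one on 1. The cells with several or no hashtag had a median of 36544 UMIs, against 14196 for those with 1. RNA of other cell types went with them: at least 10 UMIs of the T cell genes Cd3e, Cd3d, Cd3g, Trac and Trbc2 together were in 22 of the 74 and in 6 of the 27, and at least 10 UMIs of Csf3r, the G-CSF receptor of neutrophils, were in 29 and in 3. The part of joined or mixed cells in the results was not tested, so main values below are given for all 74 and also for the 27. Of the latter, 6 carried hashtag 2, 7 hashtag 3, 5 hashtag 4, 1 hashtag 5, 3 hashtag 6 and 5 hashtag 7.

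The macrophage label was checked mainly against genes the gate did not use. Csf1r, the receptor for the growth factor that macrophages live on, was detected in 65 of 74 cells, Adgre1 (F4/80) in 62, Apoe in 64 and Cd14 in 66. Mertk, a receptor for dying cells, was found in 44 and Fcgr1 (CD64) in 62. Surface CD64 had a median of 45 antibody UMIs, against 16 on other tumor cells, and CD115, the protein of Csf1r, a median of 0 on both. All antibodies together had a median of 2603.5 UMIs on macrophages and 980.5 on the rest. As a pooled share of antibody UMIs, CD64 was 1.81% and 1.74%. Within hashtags its share was higher in 3 of 4 (mean log2 0.37), and by highest hashtag in 3 of 5 (0.07). 3 cells lacked both Csf1r and Apoe. Markers of other cells were present to different extents. Summed CPM of 11 neutrophil genes was 7828, against 22344.5 in the other tumor cells, with 0 to 193 UMIs per 10000 in single macrophages. S100a8 and S100a9 are among these 11 and were held low by the gate, so this gap was partly set by the choice of cells. The 12 T and NK cell genes had 1017 CPM, against 1303, with 1 gene at 0. The 9 epithelial and tumor cell genes had 55.9 CPM, against 144: Krt8, Krt14 and Krt6a were at 0, while Epcam had 21 UMIs in 3 cells and Krt17 11 UMIs in 1 cell. The 9 stromal and endothelial genes had 71.3 CPM, against 366, and all 4 mast cell and basophil genes were at 0.

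Against all other tumor cells, 8403 genes reached 10 CPM on the higher side. At least 4-fold higher in the macrophages were 27 of them (0.321%) and 154 (1.83%) were 4-fold lower. Among cells with 1 hashtag 8879 genes reached the level, 123 (1.39%) were 4-fold higher and 292 (3.29%) lower, and 19 and 128 of these were the same genes as in all cells. Of those 123, 79 had at least 50% of their macrophage UMIs in a single cell. The median log2 ratio over all genes was 0.16 and 0.10. In all cells 65.7% of genes lay above 0, 3.88% were at least 2-fold higher and 3.65% lower, and with 1 hashtag the shares were 56.9%, 7.52% and 8.04%. Ratios below are log2 values of macrophages over other tumor cells, with 3 UMIs added to each side.

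Genes of uptake and clearance were among the higher ones. Mrc1 stood at 1633 CPM against 633 (1.37). Mertk was at 77.3 against 18.9 CPM (1.99, and 1.85) and Stab1, a scavenger receptor, at 230 against 59.5 (1.94, and 2.19). Mgl2, a galactose-binding lectin of macrophages and dendritic cells, was at 84.5 against 13.3 (2.60, and 2.44). Folr2, a folate receptor of resident-type macrophages, was at 48.7 against 13.7 (1.77, and 1.90). Cd163, the hemoglobin receptor, was at 115 against 33.2 CPM, yet only 13 cells held it and 1 cell had 97.8% of the UMIs among cells with 1 hashtag. Of 14 listed scavenging genes 11 reached the level, 9 lay above 0 and their median was 1.35 (1.23 with 1 hashtag). By hashtag, Mrc1 in macrophages and other cells was 349 and 128 CPM under hashtag 2, 1200 and 727 under 3, 136 and 163 under 4, and 1161 and 984 under 7. It was thus higher in 3 of 4 hashtags, and the gap varied with the hashtag.

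MHC class II genes stood higher as a set: all 8 listed genes reached the level and were at least 2-fold higher, with a median of 1.44 (1.81 with 1 hashtag). H2-Aa was at 2247 against 646 CPM (1.80, and 2.35), H2-Ab1 at 1.82 and 2.38, and H2-Eb1 at 1.86 and 2.31. Cd74, the invariant chain that guides class II molecules, was the most abundant, with 5107 against 1705 CPM (1.58, and 2.07). H2-DMa and H2-DMb1, which help load the peptide, had 1.19 and 1.28, and Ciita, the coactivator of class II transcription, 1.27. The hashtags did not share this direction. H2-Aa in macrophages and other cells was 22.5 and 1087 CPM under hashtag 2, 3864 and 888 under 3, 4488 and 18.1 under 4, and 1579 and 104 under 7, so hashtag 2 ran the other way.

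As background, the promoters of class II genes share a set of short elements, among them an inverted CCAAT box named the Y box, which binds the factor NF-Y. The windows from 250 bases before to 50 bases after the gene start were taken from RefSeq (GRCm38.p6, which is mm10) and searched for ATTGG and its reverse complement CCAAT. 2 of the 3 class II genes had an entry. They are shown with the matches in capitals, 5′ to 3′ on the gene's strand. H2-Aa is at chr17:34287774-34288073 on the minus strand and H2-Eb1 at chr17:34305617-34305916 on the plus strand.

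H2-Aa: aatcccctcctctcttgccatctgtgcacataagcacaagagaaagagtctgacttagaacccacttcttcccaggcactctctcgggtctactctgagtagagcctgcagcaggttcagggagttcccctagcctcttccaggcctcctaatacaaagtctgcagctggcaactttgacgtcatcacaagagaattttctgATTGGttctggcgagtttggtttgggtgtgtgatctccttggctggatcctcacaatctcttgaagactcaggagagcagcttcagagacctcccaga

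H2-Eb1: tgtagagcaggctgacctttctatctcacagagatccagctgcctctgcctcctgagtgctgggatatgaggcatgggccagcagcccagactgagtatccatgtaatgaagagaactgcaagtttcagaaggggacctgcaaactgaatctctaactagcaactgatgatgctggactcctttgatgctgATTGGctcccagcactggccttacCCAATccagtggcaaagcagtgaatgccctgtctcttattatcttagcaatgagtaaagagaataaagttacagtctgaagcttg

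The H2-Aa match starts 48 bases before the gene start, and those of H2-Eb1 start 59 and 35 bases before it. Of 32851 RefSeq promoter windows of the same length, 37.4% held the short motif on either strand. In both genes the ATTGG match lay within the longer TGATTGG, which on either strand is in 7.82% of the windows. The short match is common, and a match is no more than a description of the letters.

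Genes of lysosomes and lipid handling lay mostly above 0. Of 17 lysosomal genes 16 reached the level, 15 were above 0 and 6 at least 2-fold higher, with a median of 0.89 (1.14 with 1 hashtag). Lgmn, an asparagine-cleaving protease, was at 1027 against 410 CPM (1.32, and 1.41), Ctsl at 895 against 407 (1.14) and Ctsb at 1286 against 589 (1.12). Trem2, a lipid receptor of macrophages, was at 164 against 47.7 CPM (1.76, and 2.05), and Fabp5, a fatty acid carrier, at 1749 against 827 (1.08, and 1.62). Apoe, the lipid-binding apolipoprotein, was at 1313 against 619 CPM (1.08, and 0.89). The 15 lipid genes had a median of 0.51 (0.80).

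Chemokines split. Ccl8 was at 926 against 238 CPM (1.96, and 1.41) and Pf4, a platelet-type chemokine that macrophages also make, at 3477 against 918 (1.92, and 2.38). Ccl12 was at 209 against 44.0 CPM (2.23), but at 0.35 among cells with 1 hashtag. Cxcl2, a neutrophil attractant, was lower in macrophages, with 4895 against 9551 CPM (-0.96, and -1.06), in 4 of 4 hashtags. Of the 9 inflammatory genes that reached the level 0 lay above 0, with a median of -0.60 (-0.50 with 1 hashtag), and Il1b was at 5366 against 8510 CPM. Neutrophil genes moved the same way, with 0 of 11 above 0 and a median of -1.15 (-1.70 with 1 hashtag). S100a8 and S100a9, among these 11, were held low by the gate itself. The part of neutrophil genes in the lower chemokines and inflammatory genes was not tested. Ccl8 under hashtag 7 was 34.1 CPM in macrophages and 4962 in the other cells, which shows that cells outside the gate also held this RNA.

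Over all cells Spp1 differed little from the rest of the tumor, while Arg1 was higher in the pooled cells but not in every hashtag. Arg1 was at 964 against 453 CPM (1.09, and 1.78), with 2 of 4 hashtags higher. Spp1 was at 1444 against 1530 CPM (-0.08), and at 0.79 with 1 hashtag. Mmp12, the macrophage elastase, was at 142 against 25.1 CPM (2.46), with 95.3% of the UMIs among cells with 1 hashtag in 1 cell. Mmp14, a membrane-bound matrix protease, was at 356 against 153 CPM (1.22, and 1.23), higher in 4 of 4 hashtags. The lowest ratios included Tm4sf1 at 2.13 against 640 CPM (-7.75), Sparc at 0.854 against 129 (-6.26) and Krt8 at 0 UMIs against 69.1 CPM, all low with 1 hashtag too. The epithelial and tumor cell list itself went both ways: of its 4 genes at the level 2 lay above 0, and with 1 hashtag 3 of 6 were at least 4-fold higher and 2 at least 4-fold lower. Of 6 stromal genes at the level 5 were at least 4-fold lower.

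The macrophages differed widely among themselves. Per 10000 UMIs of a cell, Mrc1 had a median of 9.39 and a highest value of 161, and 10 cells were at 0. Arg1 had a median of 3.90 and a highest of 75.7 with 22 cells at 0, and Spp1 2.90 and 162, also with 22 at 0. Ccl8 was the most uneven: its median was 0.34, its highest value 210, and 33 cells were at 0. The 3 class II genes together had a median of 13.7 and a highest of 335, with 12 cells at 0 and 15 cells above 100. Among cells with 1 hashtag the medians were 0.33 for Arg1 and for Spp1, 0 for Ccl8, 3.43 for Mrc1 and 7.70 for class II. In cells with several or none they were 5.69, 4.86, 1.23, 16.1 and 21.8, in the same order.

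**Figure D2:**
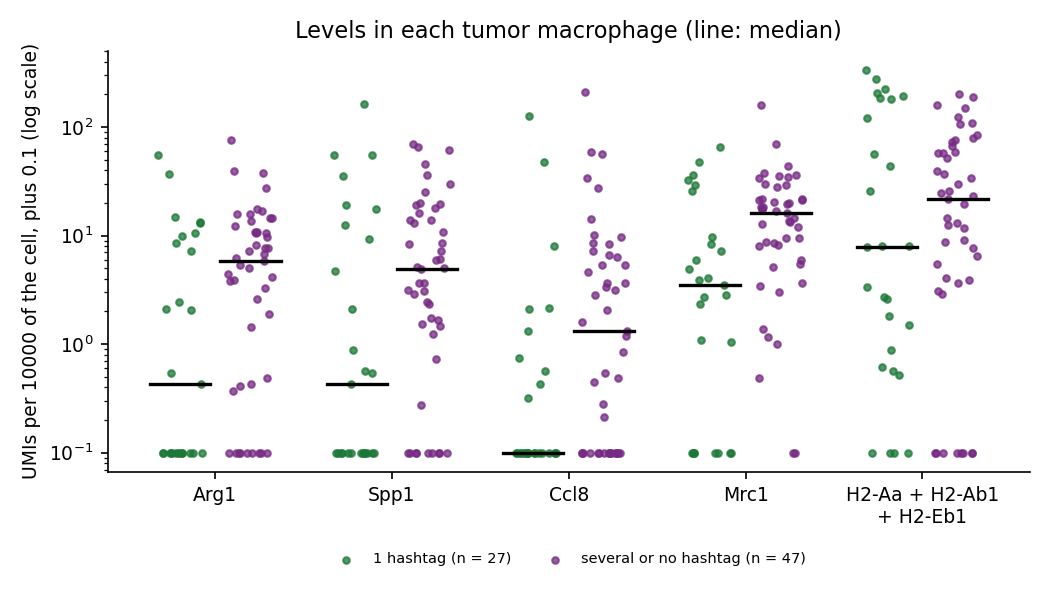
Arg1, Spp1, Ccl8, Mrc1 and the sum of 3 class II genes in each of the 74 macrophages, in UMIs per 10000 (log scale, 0.1 added), for 27 cells with 1 hashtag (green) and 47 with several or none (purple). The black medians of the purple sets lie above those of the green sets for all 5, and the points of both sets overlap.

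Single cells carried much of the RNA in the smaller set. Of the UMIs among cells with 1 hashtag, 1 cell held 71.7% for Arg1, 45.8% for Spp1, 87.0% for Ccl8, 35.8% for Mrc1 and 41.0% for class II. Sums per hashtag follow these cells. Under hashtags 2, 3, 4 and 7, Arg1 was 361, 3006, 30.3 and 444 CPM. Spp1 was 146, 2193, 30.3 and 7086 CPM, so hashtag 7 led for Spp1 and hashtag 3 for Arg1. Ccl8 was 0, 342, 15.2 and 34.1 CPM. Class II was 169, 10404, 11752 and 3748 CPM, low under hashtag 2 alone. The C1q sum, used for the choice, was 6660, 4453, 6733 and 5694 CPM. Over the 4 hashtags Arg1 averaged 960 ± 1376 CPM (SD, n = 4), Spp1 2364 ± 3301, Ccl8 97.9 ± 163, Mrc1 712 ± 549 and class II 6518 ± 5492. The SD exceeded the mean for Arg1, Spp1 and Ccl8.

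To compare detection at equal depth, every cell was drawn down to 1000 UMIs. An Mrc1 UMI was then found in 56.8% of macrophages, in 15.7% of the 338 other tumor cells deep enough, and in 7.69% of 52 tumor cells gated on T cell receptor RNA, which should lack the gene. Before drawing down the shares were 86.5%, 30.5% and 11.5%, at median depths of 25874.5, 8590 and 7095.5 UMIs. Arg1 was in 39.2%, 10.9% and 5.77%, and Spp1 in 39.2%, 25.4% and 11.5%. Ccl8 was in 18.9% of macrophages, 3.25% of other cells and 0 of 52 T cell receptor cells. In the 27 macrophages with 1 hashtag the shares were 37.0% for Mrc1, 18.5% for Arg1 and for Spp1, and 11.1% for Ccl8, with exact intervals of 19.4 to 57.6, 6.30 to 38.1 and 2.35 to 29.2. For Spp1 that interval holds the 11.5% of the T cell receptor cells. For Arg1 the 5.77% lies just below it, but the interval of that 5.77%, 1.21 to 15.9, overlaps it. Neither the Spp1 nor the Arg1 share in the smaller set was separable from background by this count.

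Levels of the 5 measures were related weakly to each other once every cell was drawn down to 1000 UMIs. Spearman's rho over the 74 cells was 0.34 for Ccl8 with Mrc1 (0.50 in the 27 cells, 0.19 in the other 47) and 0.27 for Arg1 with Spp1 (0.45 and 0.17). Class II had rho between -0.10 and 0.05 with the other 4. These cells share 1 library, and in sparse counts weak values carry little. Ccl8 was seen in only 3 of the 27 cells at that depth, and without drawing down its rho with Mrc1 was 0.113 in the 27 and 0.0974 in the 47. Arg1 with Mrc1 moved with depth too: rho was 0.10 at 1000 UMIs, 0.45 at 3000 and 0.61 without drawing down. Counting cells instead, 9 macrophages had Ccl8 at 10 or more per 10000, and 8 of them had Mrc1 at that level too, against 35 of all 74. Arg1 reached it in 22 cells, Spp1 in 23 and both in 12.

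Among 818 genes found in at least 20% of the macrophages, Cd74 was most like class II (rho 0.84), followed by Ifitm1 (0.48) and Cst3 (0.43), which encodes an inhibitor of cathepsins. Pf4 was most like Mrc1 (0.64), followed by Ctsl (0.57), and Pf4 also led for Ccl8 (0.40). Ccl2, a monocyte attractant, was most like Spp1 (0.54). Ier3, an early response gene, led for Arg1 (0.41). For class II and Mrc1 the 27 cells gave 0.93 with Cd74 and 0.48 with Pf4, and the other 47 gave 0.75 and 0.58.

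Surface MHCII followed class II RNA. At 1000 RNA UMIs per cell, rho between class II RNA and the share of antibody UMIs that were MHCII was 0.78 over 74 cells, 0.83 in the 27 and 0.75 in the 47. It was 0.81 when barcodes with T cell receptor RNA were left out. In the 19 cells lowest in class II RNA the median MHCII count was 19 UMIs, in the next 18 it was 50, in the next 18 it was 248 and in the 19 highest 464. Within cells of 1 hashtag the lowest 11 and highest 8 of these had 19 and 273.5. The antibody was not used in choosing the cells, so this is a readout apart from the RNA, though both come from the same barcodes. Of the other 17 antibodies, CXCR2 with Cxcr2 (0.55) and Ly6C with Ly6c2 (0.51) were among the higher ones without drawing down, while CD64 with Fcgr1 had 0.13, CCR2 with Ccr2 0.02 and CD44 with Cd44 -0.04.

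**Figure D3:**
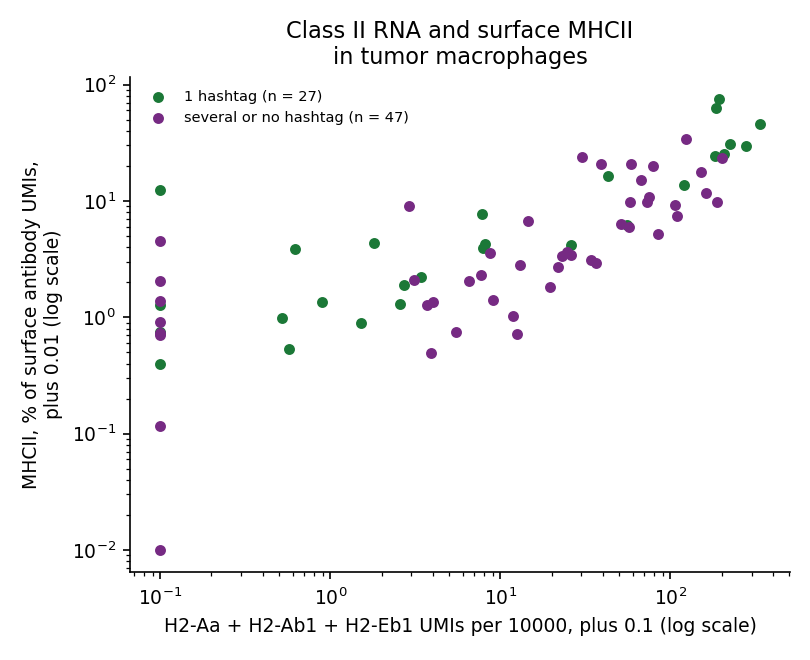
Class II RNA (H2-Aa, H2-Ab1 and H2-Eb1 UMIs per 10000, log scale, 0.1 added) against surface MHCII (percent of the 18 surface antibodies' UMIs, log scale, 0.01 added) in 27 macrophages with 1 hashtag and 47 with several or none. Both sets rise together, and the cells with no class II RNA, at the left edge, spread from 0 to 12.3% MHCII.

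Set against the other tumor cells, MHCII antibody counts had a median of 127.5 UMIs on macrophages and 8 on the rest. CD14, the endotoxin co-receptor, had 63.5 and 10, CD11b, the integrin of myeloid cells, 558.5 and 155.5, and CD1632, the Fc receptors, 292.5 and 76.5. Macrophages also had more antibody UMIs in all, so shares were compared within hashtags. The MHCII share was 2.62% in macrophages and 7.77% in other cells under hashtag 2, 8.32% and 1.94% under 3, 27.5% and 0.872% under 4, and 9.09% and 1.49% under 7. It was higher in 3 of 4, as for the RNA, and the mean log2 ratio was 2.03 with an SD of 2.71 (exact two-sided sign-flip permutation p = 0.25, adjusted over the antibodies 0.40). Leaving out 1 hashtag moved that mean from 1.05 (without hashtag 4) to 3.23 (without hashtag 2). With all cells placed by their highest hashtag it was higher in 5 of 5 hashtags, 8.88% against 4.01% under hashtag 2, with a mean of 1.48 (exact permutation p = 0.0625, the smallest possible there, adjusted 0.225). The CD14 share was higher in 4 of 4, but by a mean log2 of 0.12 (exact permutation p = 0.125, adjusted 0.40). With 4 hashtags 0.125 is the smallest p the test can give, so no antibody could pass.

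To see what went with each of the 5 measures, the 74 cells were divided at the median into 37 above and 37 at or below, and the pooled RNA was compared. The planned test per hashtag could not be run, since no hashtag had 5 cells on each side. These ratios are descriptions, and 3 UMIs were added to each side as above. Cells above the median for Arg1, Spp1, Mrc1 and class II were also deeper, for example 37307 against 21167 median UMIs for Arg1. For Ccl8 the medians were 25786 and 25963. Cells with 1 hashtag were fewer above the median, from 7 of 27 for Mrc1 to 11 of 27 for class II, and the part of depth and of mixed barcodes in the ratios was not tested.

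Cells rich in class II RNA held more of the rest of the class II machinery and less of several chemokines. Cd74 was at 8006 against 891 CPM (log2 3.16), H2-DMb1 at 2.21, Ciita at 2.56 and Cst3 at 1.23. Mmp12 was at 238 against 2.10 CPM (5.69), found in 18 cells with 36.3% of it in 1. Ccl8 (-1.47), Folr2 (-1.62) and the transcription factor Maf (-1.12) were lower, though Folr2 turned to 0.84, seen in 5 cells, with cells drawn down to 1000 UMIs. Of 9 inflammatory genes 0 lay above 0, median -0.67, with -0.91 in the 27 cells and -0.69 in the other 47. Neutrophil markers moved with it, with 3 of 11 above 0 and a median of -0.57 (-1.07 and -0.56), as did dissociation stress genes, with 2 of 14 and a median of -0.53, and their part was not tested. All genes had a median of 0.01, 50.5% lay above 0, 3.39% were at least 2-fold higher and 2.83% lower. Of the dendritic cell markers Ccr7 was at 25.2 against 0 CPM and Cd209a was also above 0, while the other 6 did not reach 10 CPM, and their part in the class II levels was not tested.

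Cells above the median for Ccl8 held less class II RNA. That median is low, at 0.34 UMIs per 10000, and only 9 of the 37 cells above it reached 10, so most of them hold few Ccl8 UMIs. All 8 class II genes were below 0, with a median of -1.02 (-1.68 in the 27 cells and -0.86 in the 47), and Cd74 was at 3378 against 6825 CPM. Cd163 was at 227 against 3.40 CPM (5.27), with its 13 cells named above. Gas6, a bridge between dying cells and Mertk (2.04), Ccl12 (1.75), Folr2 (1.59), Stab1 (1.28) and Hmox1, which breaks down heme (1.33), were higher, and each was above 0 in both sets of cells. Over all genes 52.9% lay above 0, 2.55% were at least 2-fold higher and 2.48% lower. The T and NK cell markers, all 10 of them above 0 with a median of 0.99, moved with Ccl8 in all cells but lay at -2.33 in the 27. Neutrophil markers were above 0 for 10 of 11, median 0.29, with 1.89 in the 27 cells and -0.07 in the 47. Inflammatory genes were above 0 for 9 of 9, median 0.34 (1.40 and 0.12). The part of these 3 lists was not tested.

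Several genes of uptake were also higher in cells rich in Mrc1. Ccl8 was at 1433 against 106 CPM (3.72), Stab1 at 326 against 74.9 (2.09), Folr2 at 69.1 against 15.6 (1.98), Pf4 at 4858 against 1245 (1.96) and Maf at 627 against 168 (1.89). For Ccl8, 3 of the 74 cells held 55.7% of the UMIs. By share without drawing down, its rho with Mrc1 over the 74 cells was 0.24. Arg1 was at 1348 against 342 CPM (1.97), but at 0.22 when only cells with 10 or more C1q UMIs were kept. Of 10 scavenging genes 9 were above 0, with a median of 0.85 (0.80 in the 27 cells and 0.95 in the 47), and 13 of 17 chemokines, with a median of 1.02 (0.59 and 0.78). Over all genes 44.3% lay above 0, 2.18% were 2-fold higher and 4.19% lower.

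Cells rich in Arg1 had several gene lists higher, hypoxia genes among them. All 16 genes of hypoxia and glycolysis that reached the level lay above 0, with a median of 0.51 against -0.12 for all genes, and the median was 0.66 in the 27 cells and 0.54 in the 47. Hilpda, a lipid droplet protein induced by low oxygen, was at 387 against 149 CPM (1.36). Ccl24 was at 206 against 20.2 (3.19), Hmox1 at 252 against 76.1 (1.69), Pf4 at 1.51, Spp1 at 1.33 and Fn1 (fibronectin) at 1.16. The same 16 genes were all above 0 in cells rich in Mrc1 (median 0.47, with 0.83 and 0.24). In Arg1-rich cells chemokines were above 0 for 13 of 17 (median 0.78) and matrix and angiogenesis genes for 12 of 14 (0.66). So were scavenging genes for 10 of 11 (0.54), inflammatory genes for 9 of 9 (0.40) and dissociation stress genes for 12 of 14 (0.18). Cell cycle genes were above 0 for 1 of 12 (-0.49). Over all genes 37.4% lay above 0, 1.23% were 2-fold higher and 5.08% lower.

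Cells rich in Spp1 had Arg1 at 1351 against 364 CPM (1.89), Ctsl at 1148 against 503 (1.19) and the collagenase Mmp13 at 44.2 CPM against 0. Cell cycle genes were above 0 for 9 of 12, median 0.61, with 1.40 in the 27 cells and 0.22 in the 47. Without the cells of hashtag 7 that median was 0.19. Over all genes 47.6% lay above 0, 2.29% were 2-fold higher and 2.16% lower.

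**Figure D4:**
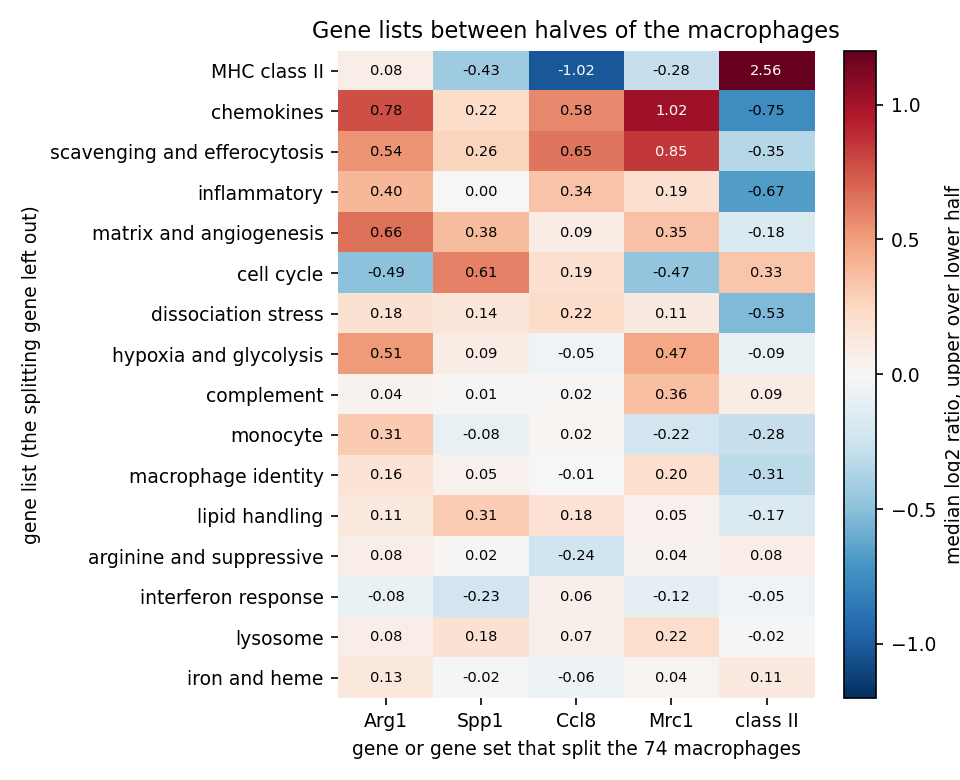
Median log2 ratio of each gene list between the 37 macrophages above and the 37 at or below the median of the measure named on the horizontal axis (red higher, blue lower, colour ends at 1.2). Class II genes are lowest in the cells above the Ccl8 median (-1.02), chemokines highest in Mrc1-rich cells (1.02), and the inflammatory list is lowest in class II-rich cells (-0.67).

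Blood monocytes, the circulating relatives of these cells, were used as a reference from another tissue. They were 710 blood cells with a Csf1r UMI, at least 3 UMIs of Ly6c2 and Ccr2 together, under 3 C1q UMIs and S100 under 5%. UMIs were summed per hashtag, with at least 5 cells of a single hashtag, giving 4 tumor sums (23 cells, 65947 to 178297 UMIs) and 8 blood sums (597 cells). The edgeR quasi-likelihood test was run on 6590 genes. At an adjusted p under 0.05, 1181 genes (17.9%) were higher in tumor macrophages and 1033 (15.7%) lower. Genes of either gate are not read as results. A gene needed 100 UMIs over the 12 sums, and the blood sums hold most UMIs. So 212 genes with few blood UMIs could pass only by being high in tumor and 633 only by being high in blood, and for these the direction was set by the filter: they are given as levels, with no test. Of the other 5745 genes, 1028 (17.9%) were higher and 761 (13.2%) lower, with a median log2 of 0.09, and counts of lists below are over those. Tissue, digestion and library coincide in this comparison and cannot be told apart.

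Mrc1, Spp1, Arg1 and Pf4 passed the minimum through the tumor sums alone, so the filter fixed their direction. Mrc1 was 349, 1200, 136 and 1161 CPM in the tumor sums of hashtags 2, 3, 4 and 7 and between 0 and 24.2 with a median of 3.45 in blood. Spp1 was 146, 2193, 30.3 and 7086 CPM against at most 3.01 in blood, and Arg1 361, 3006, 30.3 and 444 against at most 1.52. The groups did not overlap for these 3 genes. Of all 6590 genes tested, the tumor sums lay wholly above the blood sums for 699 and wholly below for 789. For Arg1 1 cell held 80.2% of the tumor UMIs and for Spp1 48.9%. Pf4 was 642, 841, 75.8 and 7845 CPM against at most 7.42. Ccl8 had 66 UMIs in the tumor sums and 0 in the blood sums and was under the minimum, as were Stab1 with 69 and 9 and Mertk with 37 and 4.

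Of 14 macrophage identity genes that could go either way 9 rose and 3 fell, with a median log2 of 0.74. Cd14 was 890, 1694, 804 and 1050 CPM against 27.3 to 69.1 in blood, a log2 fold change of 4.39 ± 0.24 (SE, edgeR adjusted p = 1.7e-10), and the groups did not overlap. Fcgr4, an activating Fc receptor, rose by 3.16, Fcgr1 by 2.68 and Maf by 2.08. Cx3cr1, the fractalkine receptor of patrolling monocytes, fell by 2.61 on the log2 scale, Tyrobp, a signalling adaptor, fell by 0.98 and Spi1 (PU.1) fell by 0.70, a call lost without barcodes holding T cell receptor RNA (-0.38, edgeR adjusted p = 0.23).

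Most chemokines had few UMIs in blood. Of 12 with enough UMIs, 10 passed only through the tumor sums, and of the other 2 Ccl9 rose by 1.05 and Ccl6 fell by 0.94 on the log2 scale (edgeR adjusted p = 0.026 and 0.016). Neither was stable: Ccl9 had an edgeR adjusted p of 0.24 with the replicate block and a DESeq2 adjusted p of 0.11, and Ccl6 turned to 0.19 without barcodes holding T cell receptor RNA and to 0.34 with cells placed by their highest hashtag. Cxcl2 was 1634, 3472, 1774 and 1349 CPM in the tumor sums, against 0 in all but 1 of the blood sums, which had 2.92. Of 3 inflammatory genes that could go either way all 3 rose. Among them Il1b was 4192, 4134, 3078 and 1306 CPM against 34.4 to 170 in blood (5.29 ± 0.36, edgeR adjusted p = 2.9e-09). Ptgs2, which makes prostaglandins, averaged 250 CPM in tumor and 0.975 in blood, Cd274 (PD-L1) 274 and 6.91, and Odc1, an enzyme of polyamine synthesis, 325 and 7.83, all with their direction set by the filter. Of 9 dissociation stress genes 8 rose, with a median of 2.35, and the part of digestion in the rise of inflammatory genes was not tested.

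Genes of matrix, hypoxia, lysosome and lipid handling rose in part. Of 7 matrix genes that could go either way 5 rose and 1 fell. Thbs1, thrombospondin, rose from 44.7 to 1255 CPM on average (4.83 ± 0.27, edgeR adjusted p = 1.9e-10). Mmp14 was 248, 258, 470 and 350 CPM against at most 1.51 in blood, with its direction set by the filter. Of 11 hypoxia and glycolysis genes 9 rose, among them Slc2a1, the glucose transporter (2.46). Of 15 lysosomal genes 6 rose and 1 fell. Ctsd was even between the tumor sums, with 699, 656, 652 and 657 CPM against a mean of 160 in blood (2.04). Lgmn rose by 3.39 and Ctsl by 3.60. Of 11 lipid genes 5 rose and 3 fell: Fabp5 rose by 4.16, while Apoc2 fell by 2.60 on the log2 scale. Apoe did not pass, with 929 ± 720 CPM in tumor and 1135 ± 611 in blood (-0.26, edgeR adjusted p = 0.70).

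Class II genes rose for 5 of 7 tested. H2-Aa was 22.5, 3864, 4488 and 1579 CPM in tumor, against 153 to 1683 with a median of 298 in blood (2.50 ± 0.66, edgeR adjusted p = 0.0062). Hashtag 2 lay below every blood sum and hashtag 7 below the highest, so the groups overlapped. H2-Eb1 rose by 2.89, H2-Ab1 by 2.47 and Cd74 by 1.97. Without the sum of hashtag 3 the Cd74 call was lost.

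Monocyte genes that could go either way fell for 5 of 7. Chil3, a chitinase-like secreted protein, went from 3192 to 113 CPM on average (-4.75), Plac8 from 2807 to 476 (-2.56) and F13a1, the clotting factor chain, from 1134 to 236 (-2.13). Serpinb2, an inhibitor of urokinase, had 0 UMIs in tumor and 72.7 to 158 CPM in blood. It passed the minimum through the blood sums alone, so the filter set its direction. Of 9 interferon response genes 3 rose, among them Irf1 by 2.07 and Gbp2 by 2.52, and 2 of the whole list did so without barcodes holding T cell receptor RNA. Markers of other cells were not equal: summed T and NK cell genes were 0 to 3978 CPM in the tumor sums and 0 to 236 in blood, neutrophil genes 811 to 5586 and 1242 to 6530. Trbc2 and Nkg7 passed the filter through the tumor sums alone.

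**Figure D5:**
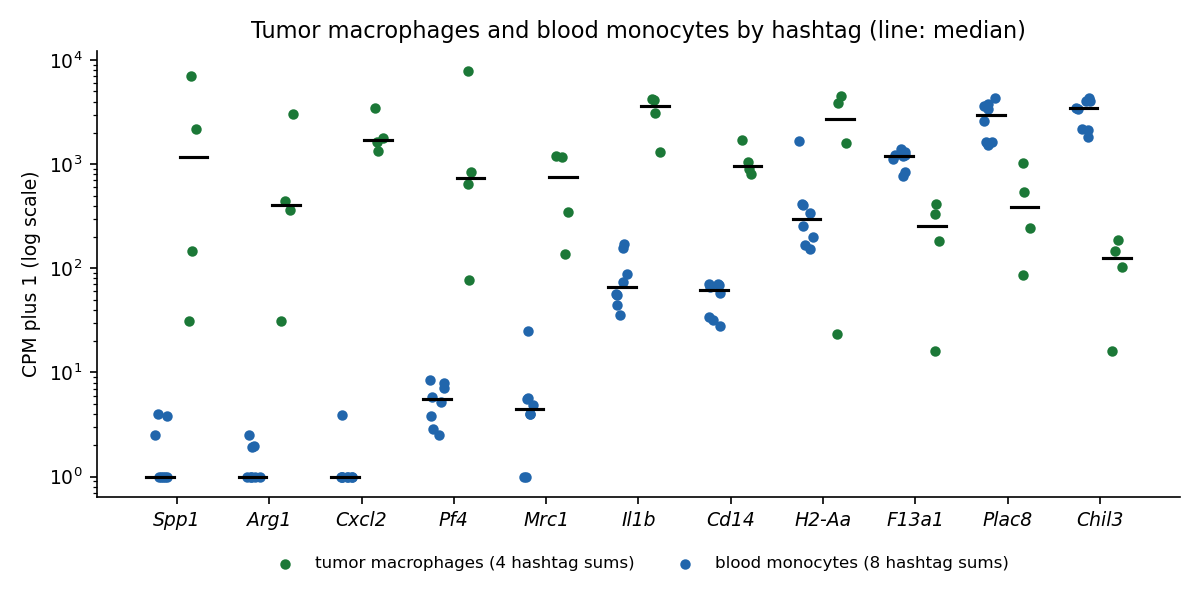
CPM of 11 genes (log scale, 1 added) in 4 tumor macrophage sums (green) and 8 blood monocyte sums (blue), 1 point per hashtag, with black medians. Spp1, Arg1, Cxcl2, Pf4, Mrc1, Il1b and Cd14 do not overlap between the groups, H2-Aa does, and F13a1, Plac8 and Chil3 are lower in every tumor sum. The filter set the direction of Spp1, Arg1, Cxcl2, Pf4 and Mrc1. Of all 6590 genes tested, 699 lay apart with tumor higher and 789 with tumor lower.

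The same gate took 20 cells in spleen, 5 in marrow and 3 in blood. The 5 of marrow had no Csf1r. No hashtag gave 5 such cells in another tissue, so this comparison has no test. The 20 spleen cells held 340537 UMIs, with 0 of Arg1, Spp1 and Ccl8, which allows up to 8.81 CPM each at 3 UMIs. In the tumor the same genes stood at 964, 1444 and 926 CPM. Mrc1 was at 64.6 CPM in spleen (exact Poisson 95% interval 40.5 to 97.8, counting error only) and 1633 in tumor, and Pf4 at 55.8 and 3477. H2-Aa was at 2775 CPM in spleen and 2247 in tumor, and Apoe at 1765 and 1313. The spleen cells also held 37814 CPM of B and plasma cell genes, up to 3345 per 10000 in 1 cell, and 687 CPM of dendritic cell genes, against 44.0 and 45.7 in the tumor macrophages, and the part of those cells in the spleen values was not tested. Slc40a1, the iron exporter, was at 117 CPM in spleen and 12.4 in tumor. Spic and Cd5l, genes of iron-recycling spleen macrophages, were each at 38.2 CPM in spleen, against 1.71 and 0 in tumor.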

How the data were processed

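The deposited matrices hold UMI counts per gene and per antibody, made by the authors with Cell Ranger 7.0.1 and mm10, per the submitters' processing notes. They were read as raw counts, and barcode suffix 4 was taken as the tumor library, which the labels do not state outright. A hashtag (1 to 8 seen on cells) was treated as 1 mouse, an assumption, since no label says which animal or genotype a hashtag stands for. A single hashtag needed at least 20 UMIs and 3 times the next. No doublet caller was run, and results are given with and without barcodes of several hashtags.

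Pooled ratios used genes of at least 10 CPM on the higher side and a prior of 3 UMIs. For the blood comparison, UMIs were summed per hashtag (at least 5 cells, genes of at least 100 UMIs), and edgeR 4.0.16 (quasi-likelihood, Benjamini-Hochberg) in R 4.3.3 was fitted over all genes, with DESeq2 1.42.0 as an alternative. Genes whose blood or tumor UMIs alone could not have met the minimum at an equal level were marked, after seeing the data, and their direction is not read as a result. The spread behind these p-values is that between hashtags and may be technical. Antibody shares were compared by exact sign-flip permutation over 4 hashtags. The pipeline was tested on simulated data. Python 3.11.15, numpy 2.4.6, scipy 1.17.1, pandas 2.3.3 and matplotlib 3.10.9 were used. Depth was 1185 to 127594 UMIs per macrophage, and intervals and zero floors (3 UMIs, 95% level) cover counting error only.

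The members and gene lists were chosen with earlier results of these data known. The rule for named genes took, against other tumor cells, the 15 highest and 15 lowest ratios among genes of at least 50 CPM, up to 4 members of each list with the largest ratio and its most abundant member; against blood, the 12 largest and 12 smallest fold changes among called genes and up to 4 called members of each list with the smallest adjusted p; the 5 measures and their class II genes always; and the 5 genes most and least alike to each measure. Of these a choice is printed, and other list members named, among them those of the cells above against below a median, were chosen after their values were seen. Planned tests of the same gate across tissues and of cells above against below a median were not run, since no hashtag gave enough cells on both sides. Alternatives covered depth, gate limits, hashtag calls, normalization, filters, the hashtag as a block and leaving out each hashtag.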

Additional observations from a re-analysis of the deposited data

Results flagged for a closer look

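A hashtag sum far from the others of its group was found in 18 of 114 groups looked at. The rule's rate of about 1 in 20 holds for independent, normally spread values. CPM are skewed and related genes such as those of class II move together, so the 18 cannot be set against that rate. Among tumor macrophage sums the highest stood apart for Arg1 with 3006 CPM (next 444), Ccl8 with 342 (next 34.1), Pf4 with 7845 (next 841), Fabp5 with 4183 (next 914), Ctsd with 699 (next 657), Odc1 with 541 (next 269), Ier3 with 982 (next 485) and Nkg7, a gene of cytotoxic cells, with 969 (next 33.7). The CXCR2 antibody share stood apart at 0.0562% (next 0.0238%).

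Among blood monocyte sums the highest stood apart for the class II genes H2-Aa with 1683 CPM (next 417), H2-Ab1 with 1351 (next 423), H2-Eb1 with 984 (next 289) and for Cd74 with 4683 (next 1472). It did so too for Mrc1 with 24.2 CPM (next 4.65), Nkg7 with 24.2 (next 11.2), Serpinb2 with 158 (next 110), Cxcl2 with 2.92 (next 0) and Ccl3 with 0.929 (next 0).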

How the results depend on the processing

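With 74 cells, of which 27 have a single hashtag, counts of genes past a fold moved with depth and filters. Genes 4-fold higher than in other tumor cells numbered 27, and 58 with cells drawn down to 1000 UMIs, 123 with 1 hashtag, 47 with S100 under 0.5%, 171 with the mean of per-cell CPM, 82 with no level minimum and 55 without T cell receptor barcodes. Leaving out 1 hashtag gave 23 to 34. Genes 4-fold lower numbered 154, and 71, 292, 384 and 258 when drawn down, with 1 hashtag, with no minimum and without those barcodes, and 130 to 175 leaving out 1 hashtag. The CD11b ratio of 0.09 turned to -0.0317 by highest hashtag and ranged from -0.115 to 0.279 leaving out 1 hashtag.

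Against blood monocytes 1181 of 6590 genes were higher and 1033 lower. Drawn down they were 48 and 161, by highest hashtag 2275 and 1978, and with no filter 2309 were higher. A margin of 5 times gave 670 lower. With the hashtag as a replicate block 781 were higher and 712 lower. Same-numbered sums of blood and tumor deviated with correlations of -0.002 to 0.160. With 5 to 7 cells per tumor sum, such values cannot tell whether the numbers pair the sums. Leaving out 1 sum gave 931 to 1139 higher and 816 to 1003 lower. Apoe turned to 0.0202 drawn down and 0.294 by highest hashtag, and ranged from -0.899 to 0.0025 leaving out 1 sum. Only 47 genes, not every one named above, were followed over all settings, and 46 of them were called. Those that lost the call in some setting included Cd74, F13a1, Trbc2 and Cebpb. Ccl6, which changed sign as given above, was not among the 47. Sums of at least 10 cells and a C1q minimum of 10 UMIs could not be fitted.

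Among relations, rho for Arg1 with Mrc1 was 0.451 at 3000 UMIs, 0.615 without drawing down, 0.613 of these with 1 hashtag and 0.597 with several. By share with 1 hashtag it was 0.598 for Arg1 with Spp1, 0.244 for Arg1 with Ccl8, -0.335 for Spp1 with class II and 0.1135 for Ccl8 with Mrc1 (0.0974 with several), and drawn down -0.326 for Mrc1 with class II. The hypoxia median in Arg1-rich cells was 0.661 with 1 hashtag, and the class II median in cells above the Ccl8 median -1.68. The scavenging median in Mrc1-rich cells was 1.46 for the top against the bottom group of 3, 0.364 drawn down, 0.602 with a C1q minimum of 10, 0.737 without T cell receptor barcodes and 0.793 to 1.0092 leaving out 1 hashtag. The inflammatory median in class II-rich cells was -0.457, -0.270 and -0.907 for the top against the bottom group of 3, drawn down and with 1 hashtag. Drawn down, Folr2 turned to 0.840 in class II-rich cells and Ube2c to -0.349 in Spp1-rich cells. The settings without T cell receptor barcodes, those of several hashtags, and 1 hashtag for cells above against below a median were chosen after seeing the data. The cause of these shifts was not tested.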
